A study of Mus musculus with 2 samples.

Results

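The genes described here carry out the step at which a cell commits to dividing: the D cyclins Ccnd1, Ccnd2 and Ccnd3, their kinases Cdk4 and Cdk6, the kinase inhibitors Cdkn1a, Cdkn1b, Cdkn2a and Cdkn2c, and the substrate Rb1. Open chromatin at these 10 genes was read from ATAC-seq of mouse T helper 2 (Th2) cells, an assay in which a transposase inserts adapters into accessible DNA. The labels give primary Th2 cells of the strain C57BL/6NJ in 1 group, as biological replicates 1 and 2, with no control, treatment or other cell type. Both replicates carry the same donor record and are not described as separate animals, so differences between them may be technical. The labels leave sex and age open, and no source used here gives the days of culture or the fraction of cells in cycle. For each gene, all regions called open in either replicate were taken within the gene or up to 20 kb beyond either end, and regions of both replicates that overlapped by at least 1 bp were joined. This gave 97 joined regions over 0.909 Mb, out of 67027 joined regions in the whole genome. With 1 group and no control, nothing could be tested, and every value below is a description.

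D cyclins are made when a cell receives growth signals, and they bind and activate CDK4 and CDK6. The active kinases phosphorylate the retinoblastoma protein, the product of Rb1, which then releases E2F factors to switch on the genes of DNA replication. INK4 inhibitors such as p16 and p18, encoded by Cdkn2a and Cdkn2c, bind the kinases directly, whereas the Cip/Kip inhibitors p21 and p27, encoded by Cdkn1a and Cdkn1b, bind cyclin and kinase complexes. Lymphocytes rely mainly on cyclin D2, cyclin D3 and CDK6 when antigen drives them out of rest.

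A pair of genes show how start sites of the same gene can differ, and their sequence is given first. Cdkn2a encodes unrelated proteins from separate first exons, the kinase inhibitor p16Ink4a and p19Arf, which stabilises p53 by binding Mdm2. Cdkn1a has an upstream start and, 2.79 kb further on, the start used by its main transcript. The lines below give the 150 bases before each start on the gene's strand, from RefSeq on GRCm38.p6, in which 7 of the 10 genes had an entry. Capitals mark matches, on either strand, to the consensus letters searched.
Cdkn2a, before the Arf start, chr4:89294654-89294803, minus strand: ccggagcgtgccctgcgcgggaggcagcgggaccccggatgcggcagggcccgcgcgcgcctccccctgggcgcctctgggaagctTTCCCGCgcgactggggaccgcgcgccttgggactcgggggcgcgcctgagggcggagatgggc
Cdkn2a, before the Ink4a start, chr4:89282193-89282342, minus strand: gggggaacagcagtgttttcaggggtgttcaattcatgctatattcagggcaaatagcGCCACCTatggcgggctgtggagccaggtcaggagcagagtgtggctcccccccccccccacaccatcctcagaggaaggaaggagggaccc
Cdkn1a, before the upstream start, chr17:29090829-29090978, plus strand: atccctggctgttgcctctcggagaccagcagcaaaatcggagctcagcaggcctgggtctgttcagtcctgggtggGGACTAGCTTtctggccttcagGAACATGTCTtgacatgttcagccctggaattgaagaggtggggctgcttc
Cdkn1a, before the main start, chr17:29093619-29093768, plus strand: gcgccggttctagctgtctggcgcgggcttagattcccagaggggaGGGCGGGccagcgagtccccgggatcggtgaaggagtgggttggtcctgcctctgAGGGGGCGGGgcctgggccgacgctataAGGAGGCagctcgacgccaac

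The Arf stretch held 22 CG dinucleotides and the Ink4a stretch 2, against a median of 4 over 32851 RefSeq windows of this length. The capitals before the Arf start are a match to the E2F consensus GCGGGAA, which 2.59% of those windows hold. Before the Ink4a start they are a match to the CTCF core AGGNGGC, held by 17.9%. Before the upstream Cdkn1a start they are 2 matches to the p53 decamer, a motif found in 4.01%. The main Cdkn1a start was preceded by 13 CG dinucleotides, 2 matches to the SP and KLF consensus GGGCGGG and 2 to the CTCF core, one of which overlaps an SP and KLF match. SP and KLF matches are in 20.2% of the windows.

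Among the regions away from protein-coding start sites, the strongest of the inhibitor genes Cdkn1a, Cdkn1b and Cdkn2a are shown, which differ in composition, together with the strongest of Cdk6. That of the inhibitor gene Cdkn2c is not shown. Its 120 bases held 2 CG dinucleotides and no match to a searched consensus. Each line gives 120 bases centred on the summit, plus strand, GRCm38.p6.
Cdk6, 11.7 kb downstream of the nearest start, chr5:3355937-3356056: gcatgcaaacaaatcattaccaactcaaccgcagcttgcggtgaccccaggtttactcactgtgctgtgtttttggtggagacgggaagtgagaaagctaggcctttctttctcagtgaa
Cdkn1a, 13.8 kb downstream of the nearest start, chr17:29111803-29111922: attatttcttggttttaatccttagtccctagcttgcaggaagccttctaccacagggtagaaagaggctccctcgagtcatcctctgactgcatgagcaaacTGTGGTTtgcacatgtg
Cdkn1b, 7.6 kb downstream of the nearest start, chr6:134928753-134928872: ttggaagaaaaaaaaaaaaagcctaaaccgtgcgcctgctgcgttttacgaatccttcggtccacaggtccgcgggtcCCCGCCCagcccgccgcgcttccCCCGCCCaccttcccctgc
Cdkn2a, 24.2 kb downstream of the nearest start, chr4:89257918-89258037: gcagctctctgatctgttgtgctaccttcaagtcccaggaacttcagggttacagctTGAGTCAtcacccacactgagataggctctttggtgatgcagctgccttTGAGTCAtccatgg

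The Cdkn2a summit held 2 AP-1 matches (TGANTCA) and no CG dinucleotide. That of Cdkn1b held 12 CG dinucleotides and 2 SP and KLF matches, and that of Cdkn1a 1 RUNX match (TGTGGTT). No searched consensus was found in these letters of the Cdk6 summit. The values of these regions are given with their genes.

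Replicate 1 held 51557 open regions and replicate 2 held 60891, with a median fold enrichment of 5.58 and 5.65. Sequencing depth is not stated. The words ASTARR and insert in the region names leave it unclear whether genomic fragments or a library cloned from them was sequenced. Promoters of 6 of 6 listed Th2 and CD4 T cell genes (Cd3e, Cd4, Gata3, Il4, Stat6 and Ccr4) had a region found in both replicates, against 0 of 13 listed genes of other cells. Over all protein-coding genes the share was 58.3%. The lists were chosen with earlier results of these data known, so they are no independent check of cell identity. Open chromatin in both replicates was found at 72 of the 97 joined regions at the cell cycle genes, or 74.2%, and over the genome at 65.7% of joined regions. The other 25 regions were among the weaker ones. Those called in replicate 1 alone numbered 7, with folds of 2.43 to 4.41, and those called in replicate 2 alone numbered 18, with folds of 1.70 to 4.47. Median folds of the regions found in both were 5.81 in replicate 1 and 6.70 in replicate 2. Below, such regions are called shared, and fold means the authors' ratio of signal at the summit to local background. In bulk cells, a weakly open region and one open in few of the cells cannot be told apart.

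Shared regions had similar strength in both replicates. The ratio of fold in replicate 2 to replicate 1 had a median of 1.08 over the 72 regions and of 1.11 over all 44058 shared regions. It ranged from 0.762, at the 5′ start of Ccnd3, to 1.64, in Ccnd3 intron 1. Only 3 of the 72 regions, or 4.17%, differed by more than 1.5 times, against 10.9% of all shared regions. These were 1 region of Ccnd3 and 2 of Rb1, and all 3 were higher in replicate 2. Replicate 2 was the higher one at 59 regions, or 81.9%, against 71.3% of all shared regions. Summits lay a median of 27.5 bp apart in the cell cycle regions and 32 bp apart over the genome.

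**Figure D1:**
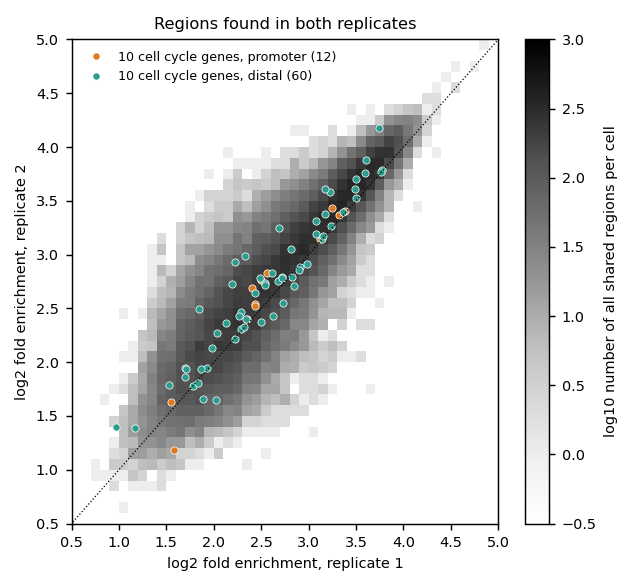
Fold enrichment of shared regions in replicate 1 (x axis, log2) and replicate 2 (y axis, log2), with 12 promoter and 60 other regions of the 10 cell cycle genes as coloured points over all 44058 shared regions in grey (log10 number per cell of the grid). The points lie along the dotted line of equal fold, and most sit slightly above it.

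By the median the 10 genes had more shared regions than protein-coding genes in general, but this did not hold strongly for each gene. Ccnd1 and Cdkn1b, with 3 each, had more than 51.7% of protein-coding genes, and Cdkn2a and Cdkn2c, with 4 each, more than 66.1%. The median was 5.5 per gene, against 2 over 21851 protein-coding genes, and 6 of the 10 had at least 5, against 22.4% of protein-coding genes. Scaled to the length searched, the median was 0.780 per 10 kb at the cell cycle genes and 0.341 per 10 kb at all. Counts differed widely within each family. Among the D cyclins Ccnd3 had 13, Ccnd2 had 6 and Ccnd1 had 3. Ccnd2 had 12 regions with replicate 2 alone. By nearest start site it had 14, against 11 at Ccnd3 and 12 at Cdk6, so that the order of these genes turned. Of the kinases, Cdk6 had 16 and Cdk4 had 8, but per length the order was the opposite, with 1.80 per 10 kb at Cdk4 and 0.697 at Cdk6. Among the inhibitors, Cdkn1a had 5, Cdkn2a and Cdkn2c had 4 each, and Cdkn1b had 3. The count of Cdk4 depended on its neighbours: by nearest start site it had 1, fewer than any of these inhibitors, and in the gene body alone it also had 1. Rb1 had 10.

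**Figure D2:**
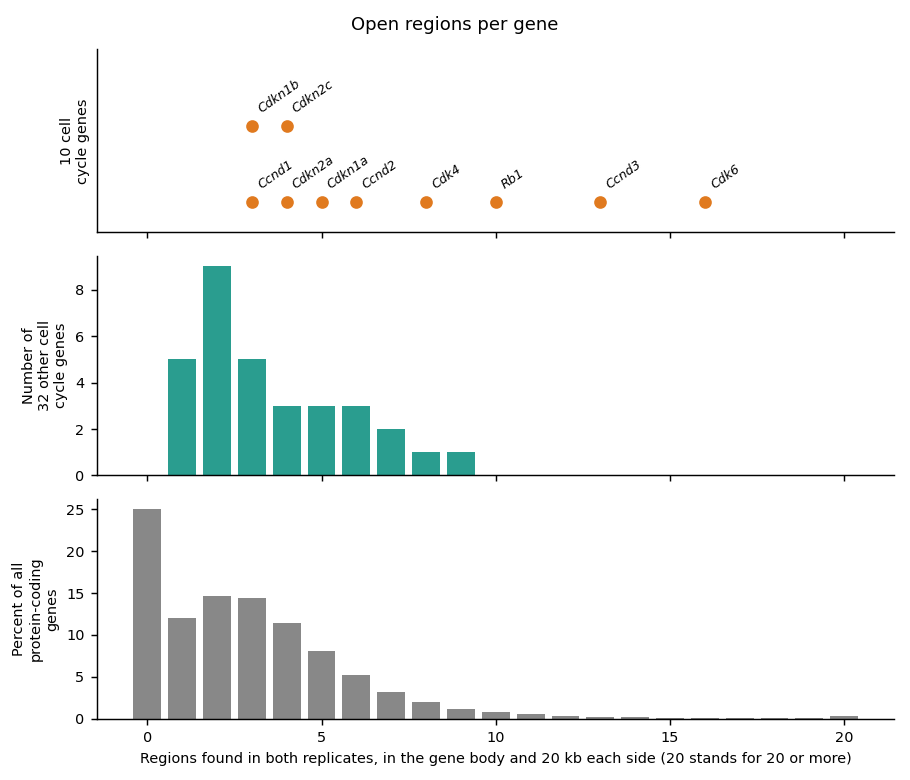
Shared regions per gene within its body or up to 20 kb beyond either end (x axis) for the 10 genes as labelled points (top), for 32 other cell cycle genes as bars of gene counts (middle) and for all protein-coding genes as percent (bottom). Cdk6, Ccnd3 and Rb1 stand at 16, 13 and 10, beyond all 32 other cell cycle genes, whose highest count is 9. They are the longest of the 10 genes, and counts are not scaled to length. Scaled, they had 0.697, 0.966 and 0.549 per 10 kb, below the 1.53 of Fzr1, which is among the 32.

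Promoters were open at 9 of the 10 genes, against 58.3% of protein-coding genes, where a promoter region is a shared region within 1 kb of the start of a protein-coding transcript. Ccnd1 was the exception. By start site, 22 of 25 were open, the others being those of Ccnd1, of a short Cdkn1a transcript and of Ink4a. The 22 lay in only 12 shared regions, so they are not separate observations. Among CpG-rich starts (at least 50% GC and an observed to expected CpG ratio of at least 0.6 within 500 bp) 12 of 13 were open, against 91.4% of such starts in the genome. CpG-poor starts were open at 10 of 12, against 28.3%, and many of these 12 lie close together and share a region.

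Promoter regions at these genes were wide and only moderately enriched. The widest one per gene had a median width of 2149 bp over the 9 genes, against 1202 bp over 12750 genes with a promoter region. At 5 of the 9, those of Ccnd2, Cdk6, Cdkn1a, Cdkn2c and Rb1, it was wider than 2104 bp, the 95th percentile, which 5.00% of those genes exceed. With the regions of replicate 2 alone the number was 3, without Ccnd2 and Rb1, whose widest promoter peaks there were 1783 and 1965 bp. Mean fold at the promoter had a median of 6.50 over the 9 genes, against 10.3 over all. Summit pileup, the count at the summit that the fold and p-value together give back, showed the opposite order, with medians of 139 and 100.5. Local background did too, at 14.6 counts for the 9 genes and 8.60 for all. At Ccnd2, Ccnd3 and Cdkn1a, mean folds of 5.18, 5.87 and 5.58 went with backgrounds of 34.9, 25.3 and 23.9 counts, each above that of at least 97.8% of genes.

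**Figure D3:**
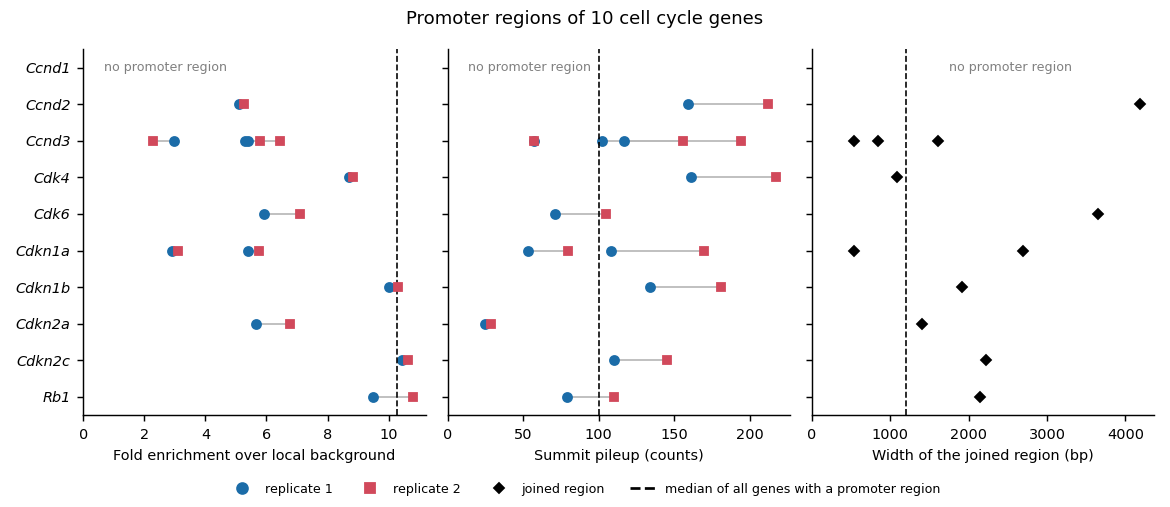
Promoter regions of the 10 genes, with fold enrichment (left), summit pileup (middle; counts in each replicate) and joined width (right; bp); circles are replicate 1, squares replicate 2 and diamonds joined regions, and dashed lines the median of all genes with a promoter region. Ccnd2 combines folds near 5 with the widest region, 4188 bp, Cdkn2a has the lowest pileups, 25 and 29 counts, and Ccnd1 has no promoter region.

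Of the D cyclins, Ccnd1 had no region called at its protein-coding start, Ccnd2 a very wide joined region and Ccnd3 its strongest start regions inside the gene. The Ccnd1 start lay 1474 bp from the nearest shared region, although its surroundings had 60.6% GC and a CpG ratio of 0.667. Cyclin D1 is the D cyclin of many non-lymphoid tissues. In its window, 3 shared regions were found. A region over exon 2, 1.9 kb downstream (chr7:144937523-144938395), had folds of 5.66 in replicate 1 and 5.18 in replicate 2. This region lay within 1 kb of the start of a Ccnd1 transcript not annotated as protein-coding. Another, 3.6 kb upstream (chr7:144943232-144943669), had folds of 4.10 and 4.84. Summit pileups were 30 and 38 counts over exon 2 and 17 and 27 upstream. Over all regions of the main chromosomes the medians were 31 in replicate 1 and 37 in replicate 2, so only the upstream region was below them in both replicates. The strongest region of the window, with folds of 12.1 and 14.7, lay 24.9 kb downstream at the promoter of LTO1, a gene of ribosome maturation. A region 1.7 kb upstream was called in replicate 1 alone, with a fold of 2.85.

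Ccnd2 encodes cyclin D2. Its promoter region (chr6:127149428-127153615) spanned 4188 bp, wider than 99.9% of promoter regions, and was joined from 2 peaks in each replicate with summed widths of 3309 and 3482 bp. The peaks were 292 and 3017 bp wide in replicate 1, and 1699 and 1783 bp in replicate 2. Those of replicate 2 did not touch and were joined only through the wide peak of replicate 1. Folds were 5.09 and 5.28, and 10.9% of genes had a weaker promoter. The summits with these folds lay upstream of all 3 protein-coding starts in both replicates, by 1494 bp in replicate 2, and 362 and 361 bp upstream of the annotated 5′ end of the gene. In replicate 1 the same peak covered these starts, whereas in replicate 2 a separate peak with a fold of 2.75 did. The summit pileup was 159 in replicate 1 and 212 in replicate 2, a mean above that of 85.6% of genes. Background was 30.4 and 39.4 counts, a mean above that of 99.8%. The wide region also held the start of the antisense RNA 9330179D12Rik.

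Of the other shared regions of Ccnd2, one in intron 3, 8.3 kb downstream, had folds of 5.07 and 5.29, nearly those of the promoter region. Upstream regions at 6.5 kb and 11.9 kb had folds of 4.07 and 3.14, and of 3.65 and 3.83. Their pileups differed more than their folds, with 69 and 73 counts at 6.5 kb but 16 and 20 at 11.9 kb. Beyond the gene's 3′ end, 28.3 kb from the start, a region at the start of the antisense RNA Gm43126 had folds of 3.81 and 3.86. Folds of 13.4 and 18.1, the highest mean at any of the 10 genes, belonged to the promoter of Tigar, a p53 target that dampens glycolysis, 41.4 kb away. Another 5 regions were called in replicate 2 alone, with folds of 1.70 to 2.61, and none in replicate 1 alone.

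Ccnd3, encoding cyclin D3, had regions at 3 groups of start sites. At its 5′ starts the region (chr17:47504756-47505287) was narrow, 532 bp, and weak, with folds of 2.98 and 2.27. Starts 88.4 kb and 91.0 kb into the gene had stronger regions. The first of these (chr17:47593130-47594736, 1607 bp) had folds of 5.40 and 5.80 and the second (chr17:47595532-47596368, 837 bp) folds of 5.31 and 6.43. At the 5′ starts the pileup was 57 in both replicates, over backgrounds of 18.5 and 24.5. At the internal starts it was 102 and 156, and 117 and 194. The 150 bases before the 5′ start and before the first internal start, again from RefSeq with matches in capitals, also differ.
Ccnd3, before the 5′ start, chr17:47504901-47505050, plus strand: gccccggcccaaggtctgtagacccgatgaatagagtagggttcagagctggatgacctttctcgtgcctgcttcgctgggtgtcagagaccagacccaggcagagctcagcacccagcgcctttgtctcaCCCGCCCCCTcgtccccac
Ccnd3, before the internal start, chr17:47593320-47593469, plus strand: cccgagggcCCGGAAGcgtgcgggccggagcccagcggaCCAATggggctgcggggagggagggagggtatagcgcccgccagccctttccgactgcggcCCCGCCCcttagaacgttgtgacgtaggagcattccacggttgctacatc

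The 5′ stretch held 7 CG dinucleotides and overlapping SP and KLF and CTCF core matches. The internal one held 15, with matches to the ETS (CCGGAAG), NFY (CCAAT) and SP and KLF consensus. ETS matches are in 5.52% of RefSeq windows and NFY matches in 24.5%.

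Intron 1 of Ccnd3 carried a row of 7 shared regions between 2.8 and 37.6 kb from the 5′ starts. The strongest, at 26.5 kb (chr17:47531268-47532068), had folds of 8.42 and 9.13. Regions at 10.6, 2.8 and 16.6 kb had folds of 6.58 and 6.91, of 6.40 and 6.73, and of 5.81 and 6.67. The last, at 37.6 kb, was 1819 bp wide and differed most between replicates, with folds of 4.67 and 7.65. After it came 49.4 kb of the gene without a shared region, where 2 regions were called in replicate 2 alone. Outside the gene, the promoters of Taf8, which encodes a TFIID subunit, and of the pair Bysl and Med20 were open. They had folds of 11.2 and 12.2, and of 9.37 and 11.97, above those of any region within Ccnd3.

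**Figure D4:**
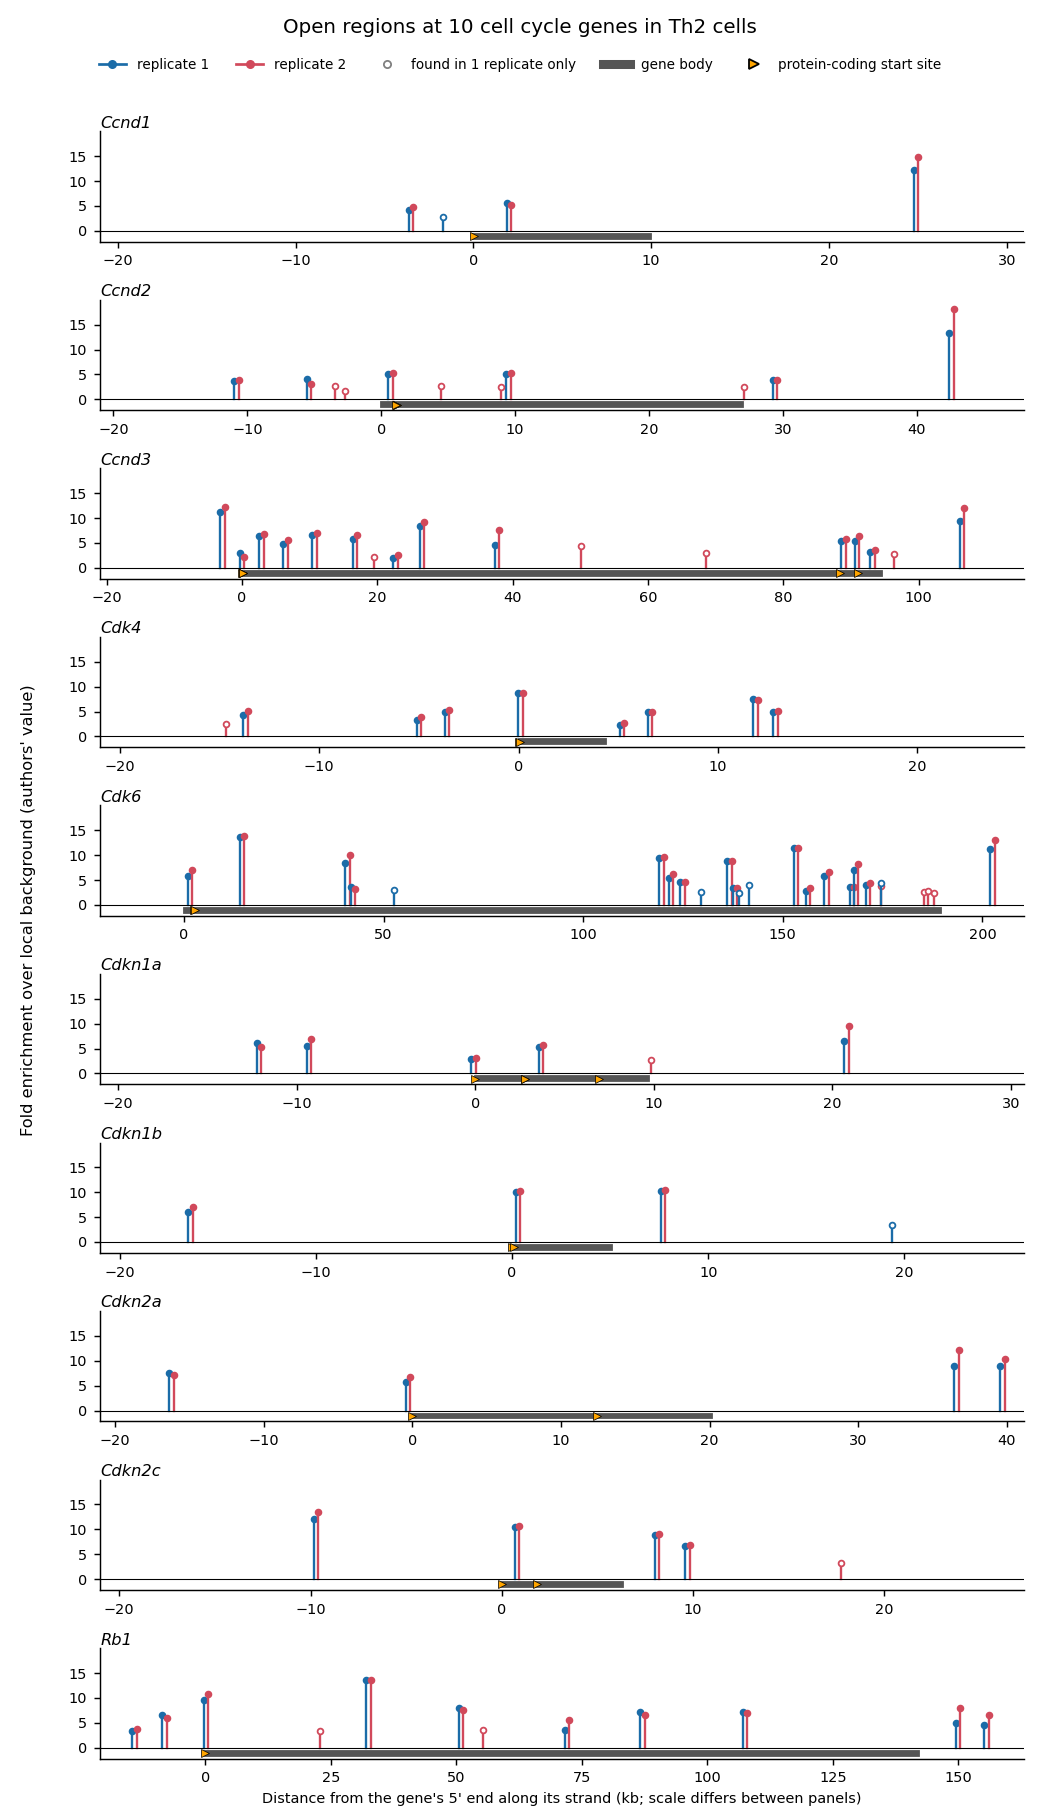
Open regions at the 10 genes by distance from the gene's 5′ end along its strand (x axis, kb, a different scale in each panel) with the fold enrichment in each replicate as the height of a line (y axis). Filled heads are regions found in both replicates, open heads regions of 1 replicate, grey bars the gene and triangles the start sites of protein-coding transcripts. Ccnd3 shows its row in intron 1, Cdk6 its row in the distal part of the gene, and Ccnd1 no line at its start.

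The kinase genes differed in layout. Cdk4 lies in a short gene among close neighbours, and Cdk6 is the longest of the 10 genes, at 189.5 kb. At Cdk4 the promoter region (chr10:127063088-127064178) was 1091 bp wide, with folds of 8.71 and 8.82 and pileups of 161 and 217. It was the only shared region nearest to Cdk4 itself. The other 7 lay nearest to other genes. A region 13.7 kb upstream in exon 3 of Cyp27b1, which encodes the enzyme that activates vitamin D, had folds of 4.38 and 5.16. At March9, a ubiquitin ligase gene, an intronic region 5.0 kb upstream of Cdk4 had folds of 3.23 and 3.86, and the promoter folds of 4.82 and 5.39. On the other side, the promoter of the tetraspanin gene Tspan31 had folds of 4.87 and 4.94, and its intron 3 folds of 2.26 and 2.61. These 5 were all weaker than the Cdk4 promoter. Between Tspan31 and Agap2, regions 11.8 and 12.8 kb downstream of Cdk4 had folds of 7.54 and 7.38, and of 4.97 and 5.03. The density of shared regions around Cdk4 was above that of 99.7% of protein-coding genes.

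Cdk6 had more shared regions than 99.4% of protein-coding genes, but its density per length searched was above that of only 79.4%. Its promoter region (chr5:3341158-3344802) was 3645 bp wide, wider than 99.8% of promoter regions. Folds there were only 5.90 and 7.09, and 7 of the 15 other shared regions had a higher mean fold. In intron 2, 11.7 kb downstream, the region whose summit is printed above (chr5:3355392-3356567) had folds of 13.7 and 13.8. A region at 38.2 kb had folds of 8.42 and 9.96, and a weaker one followed at 39.5 kb, with folds of 3.70 and 3.16. The gene then held no shared region for 76.4 kb. A row of 11 shared regions followed in introns 4 and 5, from 116.8 to 168.5 kb. Its strongest, at 150.5 kb (chr5:3494200-3495359), had folds of 11.4 and 11.5 and pileups of 188 and 255, the highest pileups of any region at the 10 genes. Regions at 116.8 and 133.8 kb followed, with folds of 9.41 and 9.59, and of 8.85 and 8.87. These lie closer to the start of Fam133b than to that of Cdk6. The promoter of Fam133b, 199.7 kb from the Cdk6 start, had folds of 11.3 and 13.0.

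The Cip/Kip inhibitor gene Cdkn1a encodes p21, a classic p53 target. The upstream start, before which the p53 matches printed above lie, had a weak region (chr17:29090653-29091190) of 538 bp with folds of 2.92 and 3.09. At the main start the region (chr17:29093355-29096049) was 2695 bp wide, wider than 98.9% of promoter regions, with folds of 5.40 and 5.76. Summit pileups were 53 and 80 in the upstream region, against 108 and 170 in the main region. The summits of the main region lay inside intron 1, 1729 and 1726 bp past the nearest start, and were 3 bp apart between replicates. The folds and pileups of the main region were thus not measured at the start itself, whereas the upstream summits lay 12 and 2 bp from the nearest start. No shared region lay within 1 kb of the start of a short transcript 6.92 kb into the gene.

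Upstream of Cdkn1a, 2 regions were open. The one at 12.1 kb (chr17:29078263-29079470) had folds of 6.17 and 5.38 and lay at the start of Trp53cor1, the long noncoding RNA also known as lincRNA-p21. That at 9.3 kb had folds of 5.61 and 6.86. The strongest by mean fold lay 13.8 kb downstream (chr17:29111407-29112073), nearest to Rab44, with folds of 6.44 and 9.49. Its pileups were the lowest of the 5 regions, 27 and 41 counts, over backgrounds of 3.34 and 3.43.

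Cdkn1b encodes p27, the inhibitor that is abundant in resting lymphocytes. Its promoter region (chr6:134919742-134921654) was 1913 bp wide, with folds of 10.004 and 10.3. A region 7.6 kb downstream (chr6:134926822-134929351) matched it, with folds of 10.3 and 10.5, a width of 2530 bp and higher pileups of 158 and 207, against 134 and 181 at the promoter. This region, whose summit with 12 CG dinucleotides is printed above, lay at the starts of the long noncoding RNAs Lockd and Gm44238. It was the widest region away from a protein-coding promoter at the 10 genes. The third shared region, 16.4 kb upstream, had folds of 6.12 and 7.12.

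At Cdkn2a a region was called at the start of Arf but not at that of Ink4a. The Arf start lay in a region of 1406 bp (chr4:89294275-89295680) with folds of 5.66 and 6.78. Pileups there were low, 25 and 29 counts, a mean above that of only 8.89% of genes with a promoter region, over backgrounds of 3.59 and 3.43. The Ink4a start, 12.46 kb further into the gene, was 12083 bp from the nearest shared region, and no region of either replicate lay within 1 kb. None of the gene apart from its 5′ end was called in both replicates, which left 19.8 kb without a shared region. Beyond the 3′ end, regions 24.2 kb (chr4:89257758-89258265) and 27.2 kb (chr4:89254730-89255203) from the Ink4a start were stronger than the promoter. They had folds of 9.01 and 12.2, and of 9.01 and 10.4, with pileups of 65 and 105, and of 69 and 99. The first holds the summit with 2 AP-1 matches printed above. The promoter of the neighbouring INK4 gene Cdkn2b, which encodes p15, was open with folds of 7.47 and 7.24.

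Cdkn2c encodes p18, an INK4 inhibitor that restrains lymphocyte division in mice. One region (chr4:109665285-109667502) of 2218 bp covered both its starts, 1.82 kb apart, with folds of 10.4 and 10.6, the highest of the 9 promoters by mean fold. Past the 3′ end, regions 6.3 and 7.9 kb from the nearest start had folds of 8.86 and 8.99, and of 6.59 and 6.87. Both lay within 1 kb of a start of the noncoding gene 9630013D21Rik. The promoter of Faf1, 9.7 kb upstream, had folds of 12.1 and 13.6.

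Rb1 had 1 start, in a region (chr14:73324671-73326819) of 2149 bp with folds of 9.49 and 10.8. Its surroundings had 75.8% GC, the most of the 25 start sites. A region in intron 4, 32.5 kb downstream (chr14:73292830-73293860), was stronger, with folds of 13.6 in both replicates. Its pileups were 105 and 107, against 79 and 110 at the promoter, so that it was higher in replicate 1 only. Further regions lay in intron 9, with folds of 7.92 and 7.51, and in intron 17, which contains the lipid receptor gene Lpar6. The Lpar6 promoter had folds of 7.19 and 6.55, and regions on either side of it, 107.5 and 72.0 kb from the Rb1 start, had 7.11 and 6.91, and 3.59 and 5.65. Upstream of Rb1, regions at 8.2 and 14.1 kb had folds of 6.65 and 5.87, and of 3.26 and 3.84. Past its 3′ end, regions in introns 10 and 12 of Rcbtb2 had folds of 4.56 and 6.62, and of 5.03 and 7.93.

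Taken over all 10 genes, 12 shared regions were promoter regions and 60 were not. Of the 60, 10 lay at the promoter of another protein-coding gene, and 6 of the other 50 at the start of a noncoding gene or pseudogene. The 50 had a median mean fold of 6.18 and a median width of 680.5 bp, against 5.90 and 619 bp over all shared regions at no promoter. Several consensus sequences were about as frequent in the 200 bp around their summits as in all such regions. AP-1 matches were in 16 of 50, or 32%, against 28.0%, RUNX matches in 8% against 9.71%, GATA matches (AGATAA) in 10% against 11.6%, and NFAT matches (TGGAAA) in 18% against 16.7%. STAT matches (TTCNNNGAA) were in 3 of 50, or 6%, against 12.5%. Of the sequences searched, E2F matches had the largest ratio, in 2 of 50, or 4%, against 0.838%, which rests on 2 regions. In the same 200 bp around the summits of the 12 promoter regions, 7 held an SP and KLF match, or 58.3%, against 39.5% of all promoter regions, and 0 held an ETS match, against 14.1%. The ETS match printed above for the internal Ccnd3 start lies in a promoter region but outside these 200 bp.

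Genes that act around the same step were open as well. Promoter regions were found at 32 of 32 other cell cycle genes, against 58.3% of protein-coding genes: 10 of 10 E2F and DP factor genes, 2 of 2 other pocket protein genes, 7 of 7 later cyclin and kinase genes, 3 of 3 other inhibitor genes, 5 of 5 activator genes and 5 of 5 genes of protein turnover and p53. Their promoters were of ordinary width, with a median of 1193.5 bp, and 3 of 32 exceeded the 95th percentile. They had a median of 3 shared regions, and 10 of 32 had at least 5, against 22.4% of protein-coding genes. Those with most were E2f2 with 9, Fzr1, an activator of the anaphase-promoting complex, with 8, and E2f4 and Rbl1, which encode a repressive E2F and the Rb relative p107, with 7 each.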

How the data were processed

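The authors deposited 1 list of open regions per library on mm10, each called from its own library's alignment, per the file headers. No source used here gives the aligner, the peak caller or their versions. The region names carry words for masking, duplicate removal, an insert, a time in hours and ASTARR, which are not explained. Each region has the authors' fold enrichment, a ratio of summit signal to local background, and deposited −log10 p-values and −log10 q-values, the lowest −log10 q being 1.00 and 1.01. The depth is unknown, which limits how precisely weak regions are called.

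From these, regions were joined across replicates (overlap of 1 bp) and set against GENCODE M21 basic protein-coding genes. The fold of a joined region is that of its strongest peak in a replicate, and of a gene's promoter the mean over replicates at its strongest promoter region. Distances run from the nearest protein-coding start of the gene to the region's centre. Summit pileup and background were solved from fold, read as (pileup + 1)/(background + 1), and a Poisson p-value to within 0.001 of −log10 p, which worked for at least 99.9984% of regions. They cover counting error only, and whether they count reads, fragments or cuts is not stated. The recovery was tested on simulated data. Consensus letters were searched on both strands, in 200 bp at summits and 150 bases before starts, and matches may overlap. Besides those spelled out with the results, the NRF1 (GCATGCG), MYC E-box (CACGTG), FOXO (TGTTTAC) and CRE (TGACGTCA) consensus and the p53 decamer, by name, were searched. The strain C57BL/6NJ can differ from the genome sequence used. The 10 genes, the lists and the motifs were chosen with earlier results of these data known. All 10 genes are named with every shared region, or, over 12, with the promoter regions and the 6 strongest others; of the other cell cycle genes, those without a promoter region (0) and the 3 with most regions, with ties. Python 3.11.15, pandas 2.3.3, numpy 2.4.6, scipy 1.17.1 and pysam 0.24.0 were used. Alternatives were a threshold on q, the overlap, the window, the promoter width, the start sites and each replicate alone.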

Additional observations from a re-analysis of the deposited data

How the results depend on the processing

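The 72 shared regions at the 10 genes became 41 in the gene bodies alone. With each replicate alone the number of regions was 83 to 91. It was 57 with a −log10 q of at least 10, 71 with a stricter overlap, of at least 50% of the shorter peak, 97 within 50 kb and 59 by nearest start site. Promoter regions were found at 9 genes under every alternative but one, a promoter of 2.5 kb, where Ccnd1 made it 10. The other cell cycle genes numbered 32 with a promoter region, and 31 with the stricter q or with the 5′ end as the only start. The median replicate ratio stayed between 1.06 and 1.102. Promoter regions over the 95th percentile of width, alternatives chosen after seeing the data, numbered 3 with the regions of replicate 2 alone and 5 with those of replicate 1 alone. Ccnd2 and Rb1 dropped out with replicate 2, where their widest promoter peaks were 1783 and 1965 bp. The number was 5 with the stricter q and 4 with the 5′ end only. Causes of these differences, including those in width between replicates, were not tested. Of 140 values per gene, 124 were alike and 16 moved by over 1.5 times. All are counts of regions or the presence of a promoter region, so none could change sign. The order of genes by count did turn when regions were counted by nearest start site. Ccnd2, with 14, then passed Cdk6 with 12, Ccnd3 with 11 and Rb1 with 5, and Rb1 stood level with Cdkn1a. Cdk4, with 1, then fell below the inhibitors. No paired analysis was possible because there is 1 group. Sequencing depth is unknown. Regions of 1 replicate alone had folds of at most 4.47, and whether depth limits them was not tested.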

Other observations

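Beyond the 20 kb windows, from 20 to 100 kb on each side, shared regions away from promoters were unevenly spread among the 10 genes. Cdkn1a had 11 and Ccnd2 9, followed by Rb1 with 7, Ccnd3 and Cdk4 with 6 each and Ccnd1 with 5. Cdk6 and Cdkn2a had 4 each, Cdkn1b 3 and Cdkn2c 1. Ccnd1, with no region called at its protein-coding start, thus had open regions on its flanks within this range, but these were not assigned to a gene. Over the 72 shared regions, mean fold and width had a Spearman correlation of 0.408, a description over regions that share the same 2 libraries.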
